A study of Ovis aries with 24 samples.

Results

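Estradiol was tested on mixed cells of the sheep pituitary in 12 of the 24 RNA-seq libraries of the series: 6 libraries of unsorted cells given 10 nM estradiol (E2) and 6 of unsorted cells given vehicle, taken as pairs by the replicate number in their labels. Of the 27054 features in the count tables, 15083 had enough reads in these 12 libraries to be tested, and all of them are described here. In every group of the series the cells came from pituitaries of ovariectomized Western white faced ewes, dispersed and kept on plastic. All of them received, 24 hours after dispersal, an adenovirus that directs green fluorescent protein to gonadotropes. The vehicle was ethanol, and ethanol or E2 was given 3 days after infection for 6 hours. The other 12 libraries are cells sorted as gonadotropes with the same 2 treatments. Passage of the unsorted cells through the sorter, the number of ewes behind a library and a shared culture of equal numbers are not stated in the labels. The p-values of the paired comparison therefore measure how much the change varies between these pairs, a spread that may be technical.

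E2 enters the cell and binds the estrogen receptor alpha, encoded by ESR1, which then acts on transcription of its target genes. In the pituitary it acts on gonadotropes, which secrete luteinizing and follicle-stimulating hormone under control of gonadotropin-releasing hormone (GnRH), and on lactotropes, which secrete prolactin. Estrogen lowers gonadotropin output for most of the ovarian cycle and makes the gland more responsive to GnRH before ovulation.

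The libraries held the cell types of an anterior pituitary. The prolactin gene PRL took 3.96 to 9.68% of the counts, and genes of the other hormone cells were present in all 12 libraries. Genes of fibroblasts and pericytes summed to 4312 to 11249 CPM (counts relative to each library's effective size, the unit of all levels here) with vehicle and to 4995 to 10559 CPM with E2. Folliculostellate and stem cell genes summed to 745 to 1327 and 772 to 1436 CPM, endothelial genes to 40.7 to 92.5 and 44.4 to 91.0 CPM, and immune genes to 17.6 to 33.9 and 18.2 to 38.0 CPM. The most abundant members of these lists were ACTA2 (fibroblasts and pericytes), ANXA1 (folliculostellate and stem cells), PLVAP (endothelium) and CD68 (immune cells). ANXA1 alone had a mean of 939 CPM with vehicle, so the sum of its list rests largely on 1 gene. The 2 treatments overlapped in each of these sums, and red blood cell genes summed to at most 0.568 CPM, with no read of ALAS2. Total counts were 5.03 to 5.98 M in replicates 1 to 3 and 32.1 to 37 M in replicates 4 to 6, and each treatment holds 3 libraries of each depth.

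One vehicle library stood apart most in the genes that respond. Of the 79 genes that were called at least 2-fold higher with E2, vehicle replicate 1 had the highest of the 6 vehicle values for 35 (44.3%), against 18.9% of all tested genes. In the sorted cells, the vehicle library with the same number was the highest of its 6 for 43 of the same 79 genes (54.4%), against 19% of all genes tested there. Vehicle replicate 5 was next, highest for 22 (27.8%, against 17.3%) in unsorted and 17 (21.5%, against 20%) in sorted cells. These genes were chosen by their rise, so the shares are a description. The cause was not tested, and values without vehicle replicate 1 are given where a result rests on that library. The library was singled out for its high values among these genes. The test below pairs libraries by number, so a fit without vehicle replicate 1 draws nothing from E2 replicate 1 either. A change of p in such a fit cannot be assigned to the vehicle library alone.

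Across all genes, E2 changed 790 of 15083 (5.24%) at an adjusted p under 0.05 in edgeR's quasi-likelihood test with the replicate number as a block. Of these 432 rose (2.86%) and 358 fell (2.37%). Rises were larger than falls, with a median of 0.45 against -0.33 on the log2 scale, and 79 genes at least doubled while 10 fell at least as far. The median over all tested genes was -0.01. The rise was seen in 6 of 6 pairs for 332 of the 432 genes and the fall for 241 of the 358. For 81 genes (0.537%) the 6 E2 and 6 vehicle values did not overlap, 65 higher (0.431%) and 16 lower (0.106%). Without the block the test called 37 genes, 32 higher and 5 lower, and all of them are among the 790. The fit without vehicle replicate 1 called 768, and those without a library of replicate 4 or 6 called 450 to 475. Under the block, leaving out either library of a number drops the same pair. Counts out of the 12 unsorted fits that leave out 1 library are therefore not counts of 12 separate checks.

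**Figure D1:**
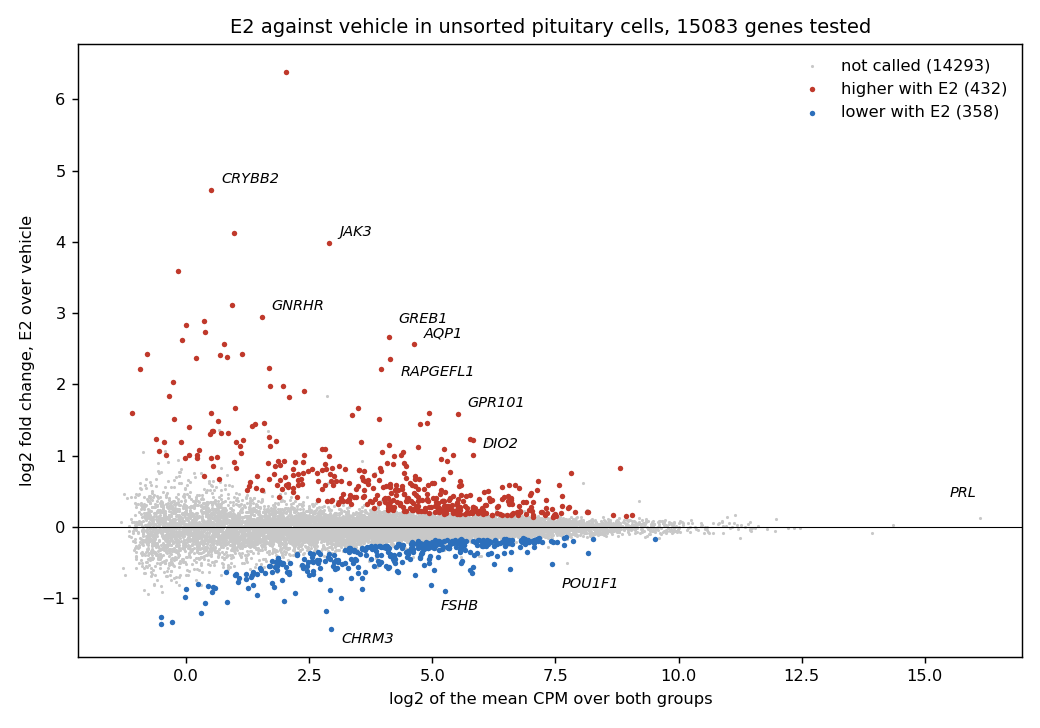
Log2 fold change of E2 over vehicle (vertical axis) against the log2 mean CPM over both groups (horizontal axis) for the 15083 genes tested, 1 point a gene. The 432 genes that rose are red and the 358 that fell are blue; the rises include 4.73 for CRYBB2, and the falls reach -1.44 for CHRM3.

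The GnRH receptor gene and 2 genes less familiar in this gland marked the response. GNRHR (ENSOARG00000007526), the receptor through which GnRH acts on gonadotropes, stood at 0.453 CPM in the lowest, 0.642 in the median and 1.04 in the highest vehicle library. With E2 the values were 2.24, 3.28 and 11.6 CPM. The groups did not overlap, and every pair rose. The rise was 2.95 ± 0.18 (log2 ± SE, adjusted p = 2.05e-09); it was 2.37 within replicates 1 to 3 and 3.07 within 4 to 6. In bulk libraries, a change in the number of cells of a type and a change in the RNA of each cell cannot be told apart. The summed level of the 6 gonadotrope genes with a feature ranged from 315 to 1336 CPM with vehicle and from 302 to 1511 CPM with E2, and it was higher with E2 in 4 of 6 pairs. This sum is mostly CGA and LHB, the hormone subunit genes described below, with means of 418 and 246 CPM with vehicle. It also holds GNRHR itself and FSHB, which E2 changed, so it does not measure the number of gonadotropes.

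RAPGEFL1 (ENSOARG00000013357), a relative of the exchange factors that activate Rap GTPases, stood at 5.01, 5.54 and 10.6 CPM (lowest, median and highest) with vehicle and at 20.7, 28.5 and 37.7 CPM with E2. It rose by 2.36 ± 0.18 (adjusted p = 0.000156), with no overlap. Its 2 highest vehicle values were in replicates 1 and 2. AQP1 (ENSOARG00000007775), a water channel of the plasma membrane, stood at 3.03, 7.76 and 12 CPM with vehicle and 18.6, 36.1 and 71.1 CPM with E2. It rose by 2.56 ± 0.15 (adjusted p = 1.02e-05), and again all 6 E2 libraries lay above all vehicle libraries. GNRHR, RAPGEFL1 and AQP1 also passed without the replicate block (adjusted p = 0.0157, 0.00043 and 0.00639) and in each fit that left out 1 library.

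**Figure D2:**
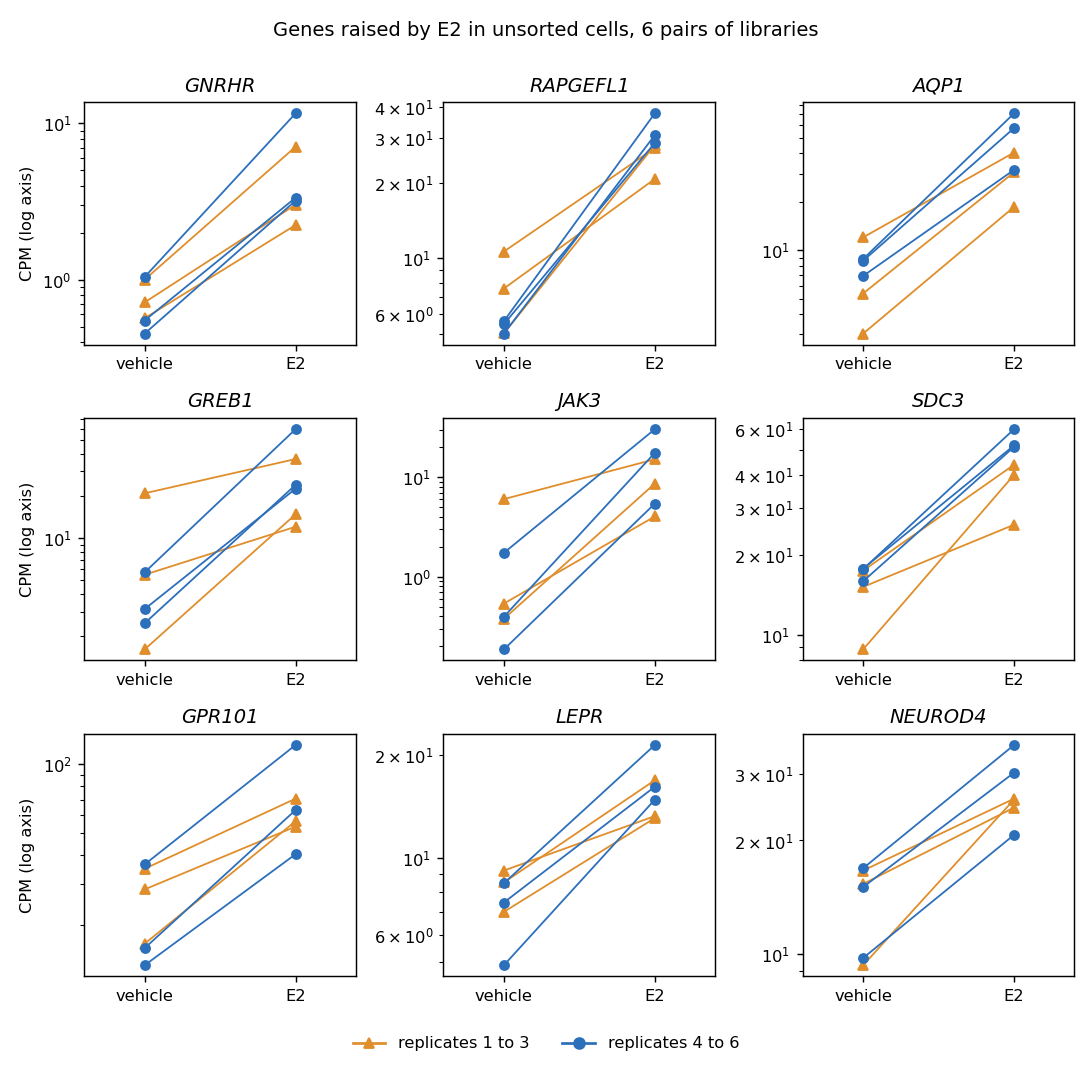
CPM on a log axis in each vehicle and E2 library for 9 genes that rose, with a line joining libraries of equal replicate number (triangles, replicates 1 to 3; circles, replicates 4 to 6). All 6 lines rise in every panel, and in the panels of GREB1 and JAK3 vehicle replicate 1 starts at 20.8 and 6.01 CPM, above the other 5 vehicle libraries.

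GPR101, an orphan G protein-coupled receptor known for duplications that cause excess growth hormone, stood at 13.3, 22.5 and 36.6 CPM with vehicle. With E2 it stood at 40.5, 59.8 and 121 CPM, and the groups did not overlap. It rose by 1.58 ± 0.15 (adjusted p = 0.00161; 0.078 without the block). LEPR, the receptor for leptin, rose by 1.19 ± 0.10 (adjusted p = 4.1e-07), from 4.89 to 9.22 CPM with vehicle to 13.1 to 21.4 CPM with E2. These groups did not overlap either. ADCY5, an adenylate cyclase that makes cyclic AMP, rose by 1.67 ± 0.20 (adjusted p = 0.00198), from a median of 5.36 to 17.3 CPM, without overlap. SDC3, a heparan sulfate proteoglycan of the membrane, rose by 1.60 ± 0.11 (adjusted p = 7.29e-06), from a median of 16.7 to 47.5 CPM. TLR5, the receptor for bacterial flagellin, rose by 1.83 ± 0.16 (adjusted p = 4.11e-07; 0.188 without the block), with overlap between 3.69 and 4.41 CPM. The overlap of TLR5 rested on vehicle replicate 1, and without this library its rise was 1.94 (adjusted p = 3.92e-07). ADCY5, SDC3 and LEPR passed without the block as well.

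JAK3, a tyrosine kinase that transmits signals of cytokine receptors, varied widely between libraries. Its vehicle values were 0.186, 0.467 and 6.01 CPM and its E2 values 4.03, 11.9 and 30.3 CPM, so that vehicle replicate 1 lay above 2 of the E2 libraries. It rose in every pair, by 3.98 ± 0.52 (adjusted p = 0.0133; 0.115 without the block). Without vehicle replicate 1, and so in effect without pair 1, the rise was 4.52 (adjusted p = 1.17e-09). Fits without a library of replicate 5 or 6 did not call JAK3 (adjusted p up to 0.074).

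Of 21 tested receptors for pituitary hormones and peptides, 6 rose and 1 fell (33.3%, against 5.24% of all genes), with a median of 0.07. The members of this and the later lists were chosen with earlier results of these data known, so such shares are descriptions. Beside GNRHR and LEPR, the somatostatin receptor genes SSTR2 and SSTR5 rose by 1.24 ± 0.28 and 0.89 ± 0.16 (adjusted p = 0.00825 and 0.001). SSTR2 was scarce, at a median of 0.433 CPM with vehicle and 0.999 CPM with E2. The receptor for growth hormone-releasing hormone, GHRHR, rose by 0.27 ± 0.05 (adjusted p = 0.00276), from a median of 52.2 to 62.0 CPM. DRD2, through which dopamine restrains lactotropes, rose by 0.17 ± 0.05 (adjusted p = 0.0304), from 143 to 167 CPM. DRD2 was not called in 7 of 12 fits on 11 libraries, those lacking replicate 1, 3 or 5 of either group, or E2 replicate 4 (highest adjusted p 0.142). The member that fell was TRHR, the receptor for thyrotropin-releasing hormone, by 0.52 ± 0.08 (adjusted p = 0.000304). Of these 7 members, GNRHR and LEPR passed without the block.

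B4GALNT3 adds the N-acetylgalactosamine of a chain ending found on pituitary hormones. It stood at 3.22, 5.41 and 6.97 CPM with vehicle and 8.09, 16.3 and 21.4 CPM with E2. It rose by 1.57 ± 0.08 (adjusted p = 2.59e-10), with no overlap. MGAT3, which adds a bisecting residue to N-linked chains, rose by 1.97 ± 0.25 (adjusted p = 0.000786; 0.115 without the block), from a median of 1.73 to 6.34 CPM, with overlap. The overlap of MGAT3 rested on vehicle replicate 1, and without this library its rise was 2.14 (adjusted p = 3.12e-06). Other genes of this size of change were CA8, a carbonic anhydrase-related protein that binds an inositol trisphosphate receptor, with 2.23 ± 0.22 (adjusted p = 8.3e-06), and MYO7A, an unconventional myosin of sensory hair cells, with 1.98 ± 0.16 (adjusted p = 1.21e-07). ADARB2, a brain protein of the RNA-editing enzyme family, rose by 1.91 ± 0.15 (adjusted p = 4.98e-07). CA8, MYO7A and ADARB2 had no overlap between groups, and of these 3 MYO7A did not pass without the block (adjusted p = 0.0652).

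Some genes were close to silent with vehicle. CRYBB2, a crystallin of the eye lens, stood at 0 CPM in the lowest, 0.0739 in the median and 0.601 in the highest vehicle library and at 1.38, 2.47 and 4.66 CPM with E2. Every E2 library lay above every vehicle library. The rise was 4.73 ± 0.34 (adjusted p = 3.13e-08), and CRYBB2 passed without the block (adjusted p = 0.00256). PHACTR3, a regulator of protein phosphatase 1, rose by 3.11 ± 0.30 (adjusted p = 4.04e-06). CRYBB3, another lens crystallin, rose by 2.74 ± 0.25 (adjusted p = 4.29e-07). PHACTR3 and CRYBB3 stayed under 7 CPM in all 12 libraries, overlapped between groups and did not pass without the block (adjusted p = 0.229 and 0.115). The highest vehicle value of these 3 genes was in replicate 1. The overlap of PHACTR3 and CRYBB3 rested on that library. Without it the rises were 5.08 for CRYBB2, 3.58 for PHACTR3 and 2.90 for CRYBB3.

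Estrogen targets known from other tissues responded in part. Of 23 tested members 4 rose and 0 fell (17.4%, against 5.24% of all genes), with a median of 0.05. GREB1, which in breast cells is a rapid target and a cofactor of the receptor, stood at 1.61, 4.31 and 20.8 CPM with vehicle and at 12.1, 23.2 and 59.6 CPM with E2. The groups overlapped through vehicle replicate 1, while the other 5 vehicle libraries reached 5.70 CPM. GREB1 rose in all 6 pairs, by 2.66 ± 0.43 (adjusted p = 0.0317; 0.21 without the block); the rise was 1.31 within replicates 1 to 3 and 3.20 within 4 to 6. Only the fits lacking vehicle or E2 replicate 1 still called GREB1, and the other 10 of 12 did not (highest adjusted p 0.145). Without vehicle replicate 1, and so in effect without pair 1, the rise was 3.04 (adjusted p = 0.00298).

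The other 3 were nuclear or signalling genes with smaller rises. RARA, a retinoic acid receptor, stood at 24.4, 39.9 and 47.5 CPM with vehicle and 38.3, 59.4 and 72.4 CPM with E2, and rose by 0.58 ± 0.06 (adjusted p = 2.94e-06). RASD1, a Ras-related GTPase, rose by 0.45 ± 0.07 (adjusted p = 0.000264), and NRIP1, a corepressor of nuclear receptors, by 0.28 ± 0.05 (adjusted p = 0.000868). Each rose in 6 of 6 pairs with overlap between the groups, and none of the 4 targets passed without the block. Of 17 tested genes of retinoid signalling RARA alone was called (5.88%, near the 5.24% of all genes). The progesterone receptor gene PGR, a standard estrogen target, has no feature of that name and was not analysed here.

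The receptor for E2 itself fell. ESR1 stood at 21.6, 30.9 and 39.5 CPM with vehicle and at 15.4, 19.9 and 24.1 CPM with E2, lower in 6 of 6 pairs with some overlap. The fall was 0.67 ± 0.07 (log2 -0.67, adjusted p = 1.84e-06; 0.173 without the block); it was -0.50 within replicates 1 to 3 and -0.74 within 4 to 6. ESR2, the second estrogen receptor gene, stood at a median of 2.72 CPM with vehicle and 1.85 CPM with E2 and did not pass (log2 -0.05, adjusted p = 0.986). Of 15 tested steroid receptors and coregulators, 4 rose and 1 fell (33.3%, against 5.24% of all genes), with a median of -0.01. Among them, beside NRIP1, the corepressor gene NCOR1 rose by 0.15 ± 0.04 (adjusted p = 0.0357). The glucocorticoid receptor gene NR3C1 rose by 0.16 ± 0.04 (adjusted p = 0.0301). The NCOR1 and NR3C1 calls were fragile: 9 and 8 of the 12 fits lacking 1 library did not make them (highest adjusted p 0.111 and 0.104). NCOR1 held only without vehicle replicate 4 or 6 or E2 replicate 6, and NR3C1 only without a library of replicate 2 or 3. Of the named coregulators and receptors none passed without the block.

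Among the gonadotropin subunits, the one specific to follicle-stimulating hormone fell. FSHB (ENSOARG00000015425) stood at 21.9, 29.8 and 86.1 CPM with vehicle and at 12.6, 17.6 and 47.5 CPM with E2. The groups overlapped because replicates differed widely, yet every E2 library lay below the vehicle library of its number. FSHB fell by 0.82 ± 0.06 (adjusted p = 1.47e-08; 1.00 without the block); it was -0.78 within replicates 1 to 3 and -0.83 within 4 to 6. The subunit gene of luteinizing hormone, LHB, stood at a median of 140 CPM with vehicle and 151 CPM with E2 and did not pass (log2 0.07 ± 0.06, adjusted p = 0.649). CGA, the alpha subunit that both hormones share, stood at 402 and 436 CPM and did not pass (log2 0.09 ± 0.05, adjusted p = 0.41). NR5A1, a transcription factor of gonadotropes, had a log2 difference of 0.04 (adjusted p = 0.919). Of the 6 tested gonadotrope genes, GNRHR rose and FSHB fell.

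**Figure D3:**
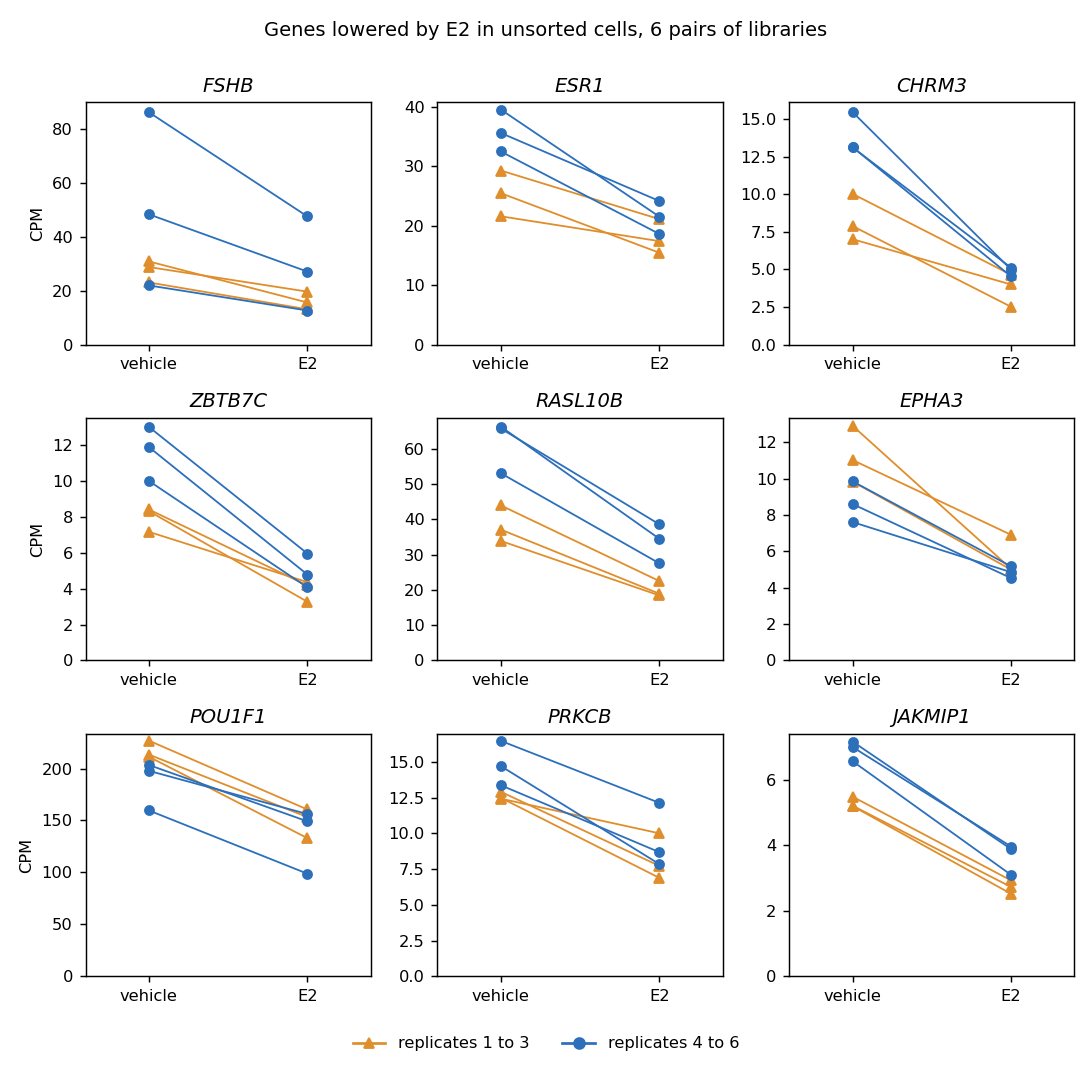
CPM on an axis from 0 in each vehicle and E2 library for 9 genes that fell, with a line joining libraries of equal replicate number (triangles, replicates 1 to 3; circles, replicates 4 to 6). All 6 lines fall in every panel; for FSHB the starting level spans 21.9 to 86.1 CPM, wider than the step from vehicle to E2.

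The largest fall of all called genes was in CHRM3, a muscarinic acetylcholine receptor that couples to calcium release. CHRM3 stood at 7.01, 11.6 and 15.5 CPM with vehicle and at 2.52, 4.59 and 5.12 CPM with E2, without overlap. It fell by 1.44 ± 0.10 (adjusted p = 1.47e-08). ZBTB7C, a zinc finger transcription repressor, fell by 1.19 ± 0.10 (adjusted p = 9.88e-08), from 7.17, 9.21 and 13 CPM to 3.27, 4.27 and 5.96 CPM, also without overlap. RASL10B, a small GTPase of the Ras family, fell by 0.90 ± 0.05 (adjusted p = 8.88e-10; 0.188 without the block), from a median of 48.5 to 25 CPM, with overlap.

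EPHA3, an ephrin receptor of axon guidance, fell by 0.89 ± 0.10 (adjusted p = 4.8e-06), and JAKMIP1, a microtubule-associated protein of neurons, by 0.93 ± 0.11 (adjusted p = 6.92e-06). Neither overlapped between groups. RTN4RL1, a relative of the receptor for the axon growth inhibitor Nogo, fell by 1.00 ± 0.09 (adjusted p = 4.29e-07), and ELAVL4, a neuronal RNA-binding protein, by 0.72 ± 0.09 (adjusted p = 1.6e-05). CHRM3, ZBTB7C, EPHA3 and JAKMIP1 passed without the block, while RTN4RL1 and ELAVL4 did not (adjusted p = 0.439 and 0.11).

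Of 30 tested genes of GnRH receptor signalling, a list that holds GNRHR itself, 2 rose and 2 fell (13.3%, against 5.24% of all genes), with a median of -0.06. Beside the receptor, 3 were called. PRKCB, the beta isoform of protein kinase C, stood at 12.4, 13.1 and 16.5 CPM with vehicle and 6.89, 8.27 and 12.1 CPM with E2. It fell by 0.65 ± 0.09 (adjusted p = 4.22e-05), without overlap. PLCB4, a phospholipase C, fell by 0.38 ± 0.06 (adjusted p = 0.000356), and the kinase gene MAPK8 rose by 0.29 ± 0.05 (adjusted p = 0.000724). These 3 did not pass without the block. Of 14 regulators of G protein signalling 0 passed in edgeR or DESeq2 (2 at an unadjusted p under 0.05), and RGS2 had a log2 difference of -0.12 ± 0.06 (adjusted p = 0.32).

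Immediate-early genes are the first that a stimulus turns on in a cell. Of 24 tested members 3 rose and 0 fell (12.5%, against 5.24% of all genes), with a median of 0.05. FOS, a subunit of the AP-1 factor, rose by 0.29 ± 0.07 (adjusted p = 0.012), from a median of 24.8 to 27.6 CPM, which fits lacking vehicle or E2 replicate 5 did not call (highest adjusted p 0.0653). NR4A2 and NR4A3, orphan nuclear receptors, rose by 0.36 ± 0.08 and 0.85 ± 0.19 (adjusted p = 0.00609 and 0.00706). NR4A2 was not called in fits lacking a library of replicate 4 or 6 (highest adjusted p 0.0675). None of the 3 passed without the block.

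Of 21 tested transcription factors of pituitary cell lineages, 2 rose and 5 fell (33.3%, against 5.24% of all genes), with a median of -0.08. POU1F1, the factor that lactotropes, somatotropes and thyrotropes depend on, stood at 160, 207 and 227 CPM with vehicle and at 98.8, 151 and 161 CPM with E2. It fell in 6 of 6 pairs by 0.52 ± 0.05 (adjusted p = 4.65e-07; 0.17 without the block). LHX3, a LIM homeodomain factor of most anterior pituitary cells, fell by 0.49 ± 0.08 (adjusted p = 0.000563), lower in 5 of 6 pairs. LMO3, a LIM-only protein, fell by 0.49 ± 0.11 (adjusted p = 0.00704), and fits lacking a library of replicate 4 or 6 did not call it (highest adjusted p 0.0813).

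The 2 that rose were NEUROD4 and LDB1. NEUROD4, a basic helix-loop-helix factor of somatotrope development, stood at 9.32, 15.2 and 16.9 CPM with vehicle and 20.7, 25.8 and 35.9 CPM with E2. It rose by 1.01 ± 0.08 (adjusted p = 5.35e-08) without overlap. LDB1, the cofactor that binds LIM domain proteins, rose by 0.55 ± 0.05 (adjusted p = 1.32e-06), from 70.6, 90.2 and 98.7 CPM to 113, 128 and 145 CPM, also without overlap. NEUROD4 and LDB1 passed without the block, and the 5 that fell did not.

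The hormone genes of the other cell types did not pass. Of the tested marker genes, 4 of 6 lactotrope genes (1 rose, 3 fell), 3 of 6 somatotrope genes (2 rose, 1 fell), 3 of 4 thyrotrope genes (1 rose, 2 fell) and 1 of 4 corticotrope genes (which fell) were called, against 5.24% of all genes. Of 2 intermediate and posterior lobe genes 0 passed in edgeR, in DESeq2 or at an unadjusted p under 0.05. POU1F1, which fell, stands in 3 of these lists. PRL stood at 39083 to 90814 CPM with vehicle and 41367 to 95989 CPM with E2. It was higher in 6 of 6 pairs, by a log2 difference of 0.12 ± 0.05 (adjusted p = 0.166; 0.0366 in DESeq2). TSHB, of thyrotropin, had a difference of 0.12 ± 0.04 (adjusted p = 0.142), POMC, the precursor of corticotropin, 0.06 ± 0.07 (adjusted p = 0.777) and the growth hormone gene GH 0.03 ± 0.05 (adjusted p = 0.864). Sheep growth hormone genes have near-identical copies, so the GH count is uncertain. DIO2, the deiodinase that activates thyroid hormone, rose by 1.01 ± 0.10 (adjusted p = 0.000144; 0.162 without the block), from 22.9, 41.6 and 47.2 CPM to 49.9, 65.1 and 122 CPM, without overlap. ANGPT1, a vascular growth factor in the lactotrope list, fell by 0.59 ± 0.08 (adjusted p = 7.58e-05; 0.071 without the block), without overlap. The prohormone convertase PCSK1 fell by 0.39 ± 0.10 (adjusted p = 0.0254), which the 6 fits lacking a library of replicate 3, 5 or 6 did not call (highest adjusted p 0.17).

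No tested marker gene of the non-endocrine cells passed over all 6 pairs. Of 11 tested fibroblast and pericyte genes, 10 endothelial, 7 folliculostellate and stem cell and 7 immune genes, 0 passed in edgeR, 0 in DESeq2 and 0 at an unadjusted p under 0.05, with medians of -0.04, -0.09, -0.05 and -0.05. The collagen gene COL1A1 had a log2 difference of -0.08 ± 0.06 (adjusted p = 0.59), with 0.07 within replicates 1 to 3 (adjusted p = 0.953) and -0.22 within 4 to 6, where it was called (adjusted p = 0.0485). The endothelial gene PLVAP had a difference of -0.08 ± 0.07 (adjusted p = 0.674). Of 25 collagens and matrix proteases, 29 Wnt signalling genes, 21 cell cycle genes, 11 cyclins D and their inhibitors, 11 inflammatory genes and 19 cholesterol synthesis genes, 0 passed in edgeR or DESeq2, and 2, 2, 1, 1, 1 and 2 had an unadjusted p under 0.05. Ribosomal protein genes (9 tested) and mitochondrially encoded genes (10 tested) had 0 calls in both tools, 0 at an unadjusted p under 0.05, and medians of 0.05 and -0.02. Of 22 interferon-stimulated genes 1 was called (4.55%, near the 5.24% of all genes): IFIH1, a sensor of viral RNA, with a fall of 0.18 (adjusted p = 0.034) that held only in the fits lacking a library of replicate 2. Of 26 heat shock and ER stress genes 2 were called (7.69%, near the same background): HERPUD1 and MANF rose by 0.20 and 0.16 (adjusted p = 0.015 and 0.0426), each in 6 of the 12 fits lacking 1 library: HERPUD1 was lost without one of replicate 3, 4 or 5 and MANF without one of 4, 5 or 6.

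Ion channels changed in both directions. Of 21 tested voltage-gated calcium and sodium channel genes, 3 rose and 4 fell (33.3%, against 5.24% of all genes), with a median of -0.08. CACNA2D2, an auxiliary calcium channel subunit, stood at 51.3, 80.1 and 88 CPM with vehicle and 93, 109 and 135 CPM with E2, without overlap, and rose by 0.59 ± 0.05 (adjusted p = 4.95e-07). The pore gene CACNA1C rose by 0.37 ± 0.06 and the gamma-like subunit gene TMEM37 by 1.20 ± 0.15 (adjusted p = 0.000956 and 1.62e-05), whereas the sodium channel gene SCN3A fell by 0.41 ± 0.05 (adjusted p = 1.3e-05). Of 29 potassium channel genes 3 rose and 4 fell (24.1%, against the same 5.24%), among them KCNQ3, up by 0.58 ± 0.10, and KCNK3, down by 0.46 ± 0.07 (adjusted p = 0.000609 and 0.000296). None of these 6 named channel genes passed without the block.

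Genes of secretion and growth factor signalling moved by small amounts. Among 29 genes of secretory granules and their fusion, 1 rose and 3 fell (13.8%, against 5.24% of all genes): CADPS, which primes granules, rose by 0.27 ± 0.04 (adjusted p = 0.000483), the granule GTPase RAB3A fell by 0.38 ± 0.07 (adjusted p = 0.00139) and the fusion protein gene SNAP25 by 0.22 ± 0.05 (adjusted p = 0.0063). The third fall was PCSK1, and fits lacking a library of replicate 6 did not call SNAP25 (highest adjusted p 0.072). Of 16 genes of the insulin-like growth factor system 2 rose (12.5%, against 5.24%): the receptor gene IGF1R by 0.21 ± 0.04 (adjusted p = 0.00492), from a median of 142 to 159 CPM, and the adaptor gene IRS1 by 0.19 (adjusted p = 0.0443), which held only in the fits lacking a library of replicate 2. Of 27 activin, inhibin and BMP genes 1 was called (3.7%, near the 5.24% of all genes): SMAD9, with a fall of 0.39 ± 0.09 (adjusted p = 0.0131) that fits lacking a library of replicate 4 or 6 did not call (highest adjusted p 0.148). Of 9 feedback inhibitors of ERK signalling 1 was called (11.1%, against 5.24%): SPRY1, with a fall of 0.20 ± 0.05 (adjusted p = 0.0321) that was called only in the fits lacking a library of replicate 6 (highest adjusted p of the others 0.215). None of these genes passed without the block.

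**Figure D4:**
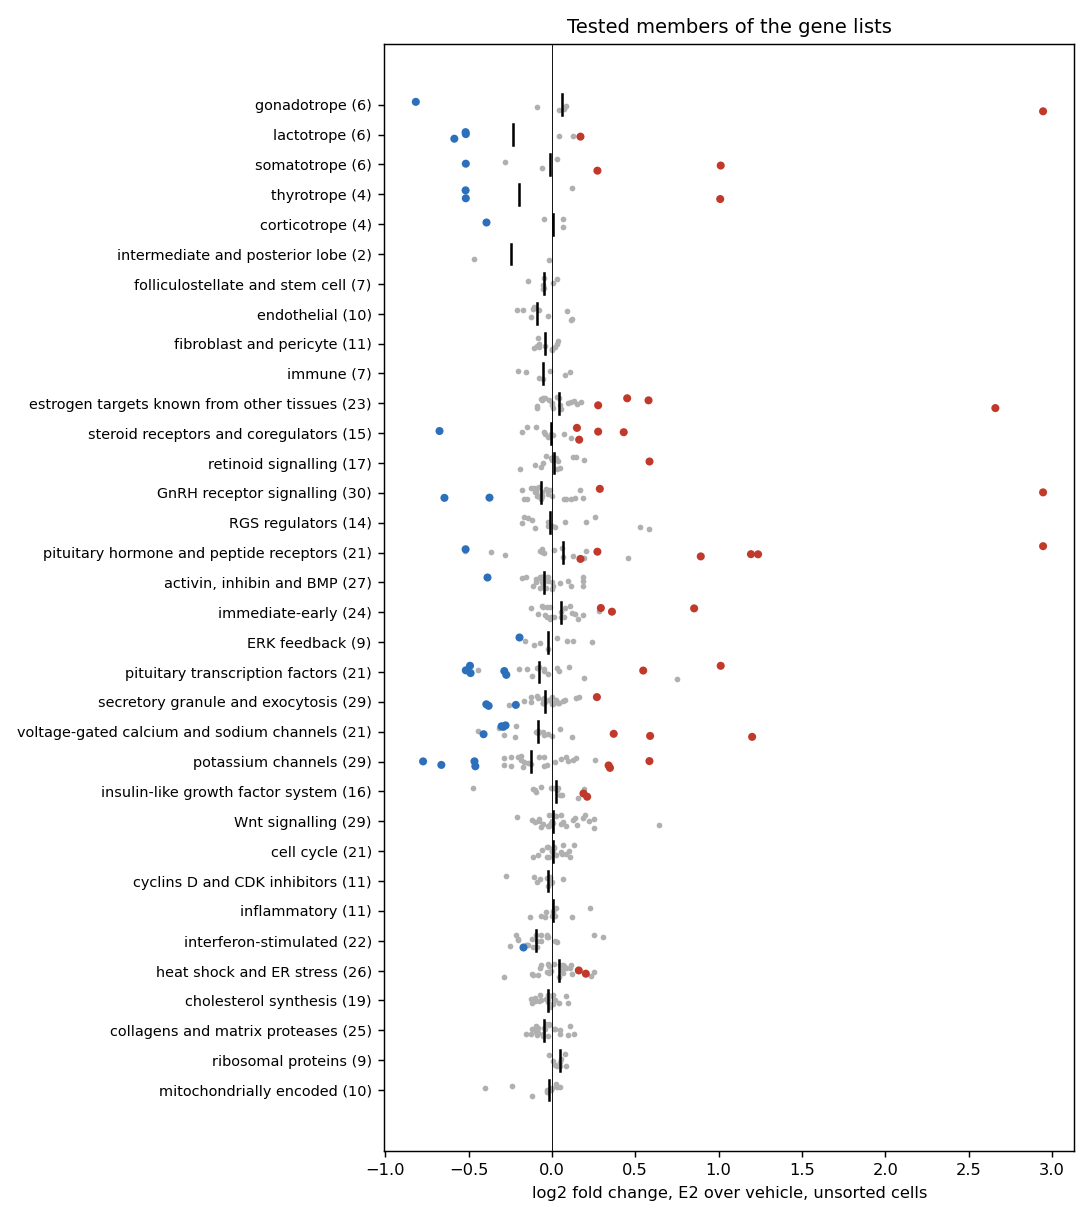
Log2 fold change of E2 over vehicle for each tested member of the gene lists (number tested in parentheses), 1 point a gene, with a black bar at the list's median; the vertical scatter within a list has no meaning. Red and blue points rose and fell at an adjusted p under 0.05; the lists of non-endocrine cells hold only grey points, and every median lies between -0.24 and 0.07.

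The response was set beside that of the sorted cells, which share no library with it, although libraries of equal number may come from 1 culture. PRL took 6.17 to 16.8% of the counts in the sorted libraries, against 3.96 to 9.68% in the unsorted ones. Total counts of the sorted libraries were 4.19 to 6.19 M in replicates 1 to 3 and 19.2 to 22.5 M in replicates 4 to 6. In the sorted cells E2 changed 1896 of 14334 genes (13.2%), 1008 higher (7.03%) and 888 lower (6.2%). Of the 790 genes called in unsorted cells 781 were tested there, and 537 of them (68.8%) were called as well, 533 in the same direction. These 537 are 28.5% of the 1883 sorted calls among the 14144 genes tested in both. At any p in the sorted cells, 753 of the 781 (96.4%) moved the same way. The share over all genes tested in both was not computed, so this share has no background. FSHB fell by 0.82 in unsorted and 0.84 in sorted cells, AQP1 rose by 2.56 and 2.47, and GNRHR by 2.95 and 2.02. The test of the difference did not call these 3 (log2 0.05 ± 0.25, 0.08 ± 0.25 and 0.97 ± 0.32, adjusted p = 1.00, 1.00 and 0.375), which does not show that they respond alike.

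The test of the difference itself, unsorted minus sorted over all 24 libraries, called 70 of 15134 genes (0.463%), 20 with a higher (0.132%) and 50 with a lower effect (0.33%) in unsorted cells, and 36 of them were also called in unsorted cells. In this test 1 term per replicate number served both preparations, so vehicle and E2 libraries were not paired within each preparation. The SE for FSHB was 0.06 in unsorted and 0.06 in sorted cells but 0.25 in the difference. A gene that this test did not call may still respond differently. CHRM3 fell by 1.44 in unsorted cells and was at -0.24 in sorted cells (adjusted p = 0.162), a difference of -1.18 ± 0.19 (adjusted p = 0.00318). CA8 rose by 2.23 and 0.78, a difference of 1.42 ± 0.32 (adjusted p = 0.0433), and GPR101 by 1.58 and 0.60, a difference of 0.98 ± 0.21 (adjusted p = 0.0432). The calls for CA8 and GPR101 held in 5 and 6 of the 24 fits that left out 1 library, and that for CHRM3 in all 24.

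Estrogen targets and LDB1 were among the genes with the smaller effect in unsorted cells. RARA rose by 0.58 in unsorted and 1.69 in sorted cells (difference -1.09 ± 0.21, adjusted p = 0.0178). RASD1 rose by 0.45 and 1.32 (difference -0.83 ± 0.15, adjusted p = 0.00906), NRIP1 by 0.28 and 1.04 (-0.77 ± 0.10, adjusted p = 0.000501) and LDB1 by 0.55 and 1.14 (-0.59 ± 0.10, adjusted p = 0.00502). RGS2, which did not pass in unsorted cells, fell by 0.89 in sorted cells (difference 0.74 ± 0.11, adjusted p = 0.00213). The calls for RASD1, NRIP1, LDB1 and RGS2 held in all 24 fits without 1 library and that for RARA in 19. Without the block the difference test called 4 genes, and the adjusted p of the 8 genes named so far in this comparison was 0.245 to 1.00.

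Of the 4 genes called in both preparations with opposite signs, 3 also passed the test of the difference; the other, PLEKHA6, did not (adjusted p = 0.305). FOS rose by 0.29 in unsorted and fell by 0.90 in sorted cells (difference 1.23 ± 0.26, adjusted p = 0.0432). LHX3 fell by 0.49 in unsorted and rose by 0.36 in sorted cells (difference -0.81 ± 0.15, adjusted p = 0.0129). BTBD8, a BTB domain protein, rose by 0.36 and fell by 0.19 (difference 0.54 ± 0.12, adjusted p = 0.0432). The LHX3 difference held in all 24 fits without 1 library, and those of FOS and BTBD8 in 6 and 8. Without the block none of the 3 passed. PLEKHA6 and BTBD8 were named after their values were seen.

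**Figure D5:**
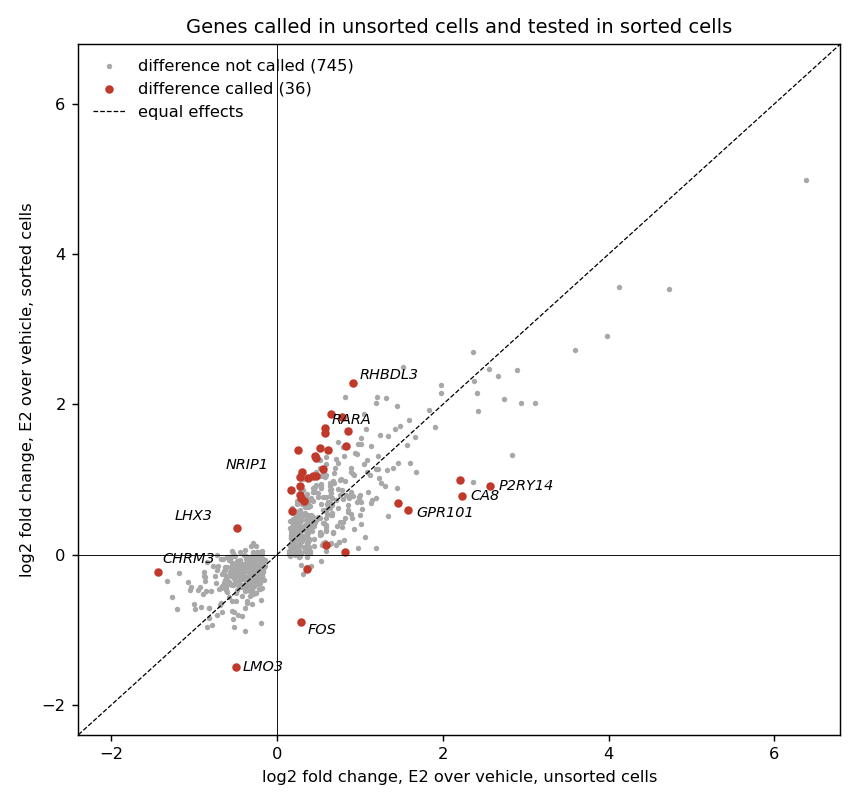
Log2 fold change of E2 over vehicle in sorted cells (vertical axis) against unsorted cells (horizontal axis) for the 781 genes called in unsorted cells and tested in both, 1 point a gene, with the dashed line at equal effects. The 36 red genes also passed the test of the difference; RARA, NRIP1 and RHBDL3 lie above the line, CA8, P2RY14 and GPR101 below it, and FOS and LHX3 in the quadrants of opposite sign.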

How the data were processed

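Reads were counted per gene by the authors with featureCounts 1.5.1, per the submitters' processing notes, and the counts are whole and unnormalized. TruSeq libraries were made from 500 ng of RNA, per the labels' protocols. The sources used here name no aligner, build or strand setting, so overlapping antisense genes are not told apart, and no sequence is printed. Of the features, 9994 have no name, 2644 only an RNA family name and 20 a bare number.

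In R 4.3.3, edgeR 4.0.16 was run on these counts (filterByExpr, TMM, robust glmQLFit, 2-sided quasi-likelihood F-test, Benjamini-Hochberg over all genes tested) with the replicate number as a block, since the comparison pairs libraries by number and the labels do not say why numbers match. Libraries of equal number, centred by group, correlated at 0.571 to 0.840, and all 6 vehicle libraries correlated best with their own number. SE was taken as |log2 fold change| divided by the root of F. The lone library of a pair carries no information under the block. Alternatives are in the closing section; scripts were tested on simulated data. The authors' deposited table of log2 fold changes and p-values is ascribed to edgeR by its name, with no version or design stated. At an FDR under 0.05 it called 77 of 17245 genes, 70 higher and 7 lower. Of these, 71 were tested here, and all 71 were called in the same direction. Most of the 790 calls here, FSHB, ESR1, POU1F1, PRKCB and RARA among them, were not called in it.

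Named genes are a selection from a rule: the 15 largest rises and falls of at least 5 CPM seen in 6 of 6 pairs, 5 each way below 5 CPM, 16 fixed genes, up to 4 members of each of 35 lists by p, and the 5 largest differences each way; further members of a list that were called, and genes said to be chosen later, stand outside it. Some genes that this rule names are not reported here. The members and lists were chosen with earlier results of these data known. Replicates 1 to 3 and 4 to 6 may be batches; the labels name none.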

Additional observations from a re-analysis of the deposited data

Results flagged for a closer look

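Of 208 groups of 6 libraries (104 genes, vehicle and E2), 10 held a library whose gap to its nearest neighbour exceeded 0.625 of the group's range, where chance gives about 1 in 20. In 4 of the 10 it was a high vehicle replicate 1. This library stood at 20.8 CPM for GREB1 (gap 0.787 of the range; the others 1.61 to 5.70), 6.01 for JAK3 (0.734; 0.186 to 1.74), 0.601 for CRYBB2 (0.734; 0 to 0.160) and 2.61 for PHACTR3 (0.913; 0.145 to 0.359). The other 6 were CRYBA4 with a high vehicle replicate 4 (2.81 CPM, 0.716), SDC3 with a low vehicle replicate 3 (8.78 CPM, 0.709), NR4A2 with a high vehicle replicate 5 (16.7 CPM, 0.762), GPR101 with a high E2 replicate 5 (121 CPM, 0.625), EPHA3 with a high E2 replicate 1 (6.91 CPM, 0.729) and FBP2 with a low E2 replicate 6 (0.847 CPM, 0.666). Causes were not tested.

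The E2 effect differed between unsorted and sorted cells for 20 of the 104 genes by the test of the difference, which called 0.463% of all genes. The 104 include genes named for the size of this difference or after their values were seen, so the 2 shares cannot be compared. It was higher in unsorted cells for P2RY14 (log2 difference 1.63), CA8 (1.42), FOS (1.23), GPR101 (0.98), LMO3 (0.95), PDK4 (0.80), FBP1 (0.75), RGS2 (0.74) and BTBD8 (0.54). It was lower for LDB1 (-0.59), NRIP1 (-0.77), LHX3 (-0.81), RASD1 (-0.83), RARA (-1.09), CHRM3 (-1.18), SYNJ2 (-1.20), RAD51D (-1.20), CABLES2 (-1.34), RHBDL3 (-1.43) and CBFA2T3 (-1.44). LMO3 fell by 0.49 in unsorted and 1.5 in sorted cells, and PDK4, a kinase that restrains pyruvate oxidation, was at 0.10 in unsorted cells (adjusted p = 0.314) and fell by 0.70 in sorted cells. RHBDL3, a rhomboid-like membrane protein, rose by 0.91 and 2.29, and RAD51D, a DNA repair protein, by 0.26 and 1.39. SYNJ2, CABLES2 and CBFA2T3 did not pass in unsorted cells (log2 0.16, 0.09 and 0.57) and rose by 1.41, 1.38 and 1.99 in sorted cells. In the 24 fits lacking 1 library, the difference held in 6 for P2RY14 and CBFA2T3 (highest adjusted p 0.124 and 0.116), in 12 for FBP1 (0.0802) and in 22 for LMO3 (0.0584). It held in all 24 for PDK4, RHBDL3, RAD51D, SYNJ2 and CABLES2, and of the 20 genes only CABLES2 passed without the block (adjusted p = 0.0315). The RAD51D call in unsorted cells was lost in 8 of 12 fits that left out 1 library (adjusted p up to 0.284).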

How the results depend on the processing

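Without the replicate block the test called 37 genes in unsorted cells, 196 in sorted cells and 4 in the difference; with the depth set as covariate in place of the block, 143, 505 and 15; and in replicates 1 to 3 alone, 67, 563 and 2. In replicates 4 to 6 alone 730 genes were called in unsorted cells. Fitting all 24 libraries together called 345 genes in unsorted cells, and DESeq2 123 in the difference and 587 in unsorted cells. Leaving out 1 library gave 450 to 826 calls in unsorted cells (450 without E2 replicate 6, 454 without vehicle replicate 6, 469 and 475 without vehicle and E2 replicate 4), 1372 to 1920 in sorted cells and 38 to 66 in the difference. The share of calls that were rises was 54.7%, and 86.5% without the block. Other scalings called 790 to 792 genes, no filter on low counts 1117 and a stricter one 767. Leaving out pair 2, an alternative chosen after seeing the data, gave 822. For single genes in unsorted cells, 410 values lost the call, 35 gained one and 4075 did neither; in the difference 189 lost it and 471 did not. No called value changed sign. The effects of the depth sets differed for 0 genes at an adjusted p under 0.05 in edgeR (734 at an unadjusted p under 0.05, no other tool run), a test also added after seeing the data. Genes near 1 CPM rest on few reads in replicates 1 to 3, which limits their precision there.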

Other observations

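Other members of gene families that hold a strong responder were looked up after their values were seen, so they are descriptions. Both fructose bisphosphatase genes, which encode gluconeogenic enzymes, rose without overlap between groups. FBP1 stood at 9.32, 14.6 and 25.2 CPM (lowest, median and highest) with vehicle and 31.9, 43.6 and 50.8 CPM with E2 (1.46 ± 0.10, adjusted p = 2.18e-06). FBP2 stood at 0.122, 0.216 and 0.568 CPM and 0.847, 1.75 and 1.90 CPM (2.62 ± 0.32, adjusted p = 1.38e-05). The 2 genes are neighbours in the ARS-UI_Ramb_v3.0 annotation, with 0 protein-coding genes between them, as are CRYBB2 and CRYBB3. Of the other tested crystallins of that family, CRYBB1 and CRYBA4 did not pass (log2 0.16 and -0.03).

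The muscarinic receptor genes went opposite ways: CHRM4 rose by 1.48 ± 0.19 (adjusted p = 2.3e-05), from a median of 0.887 to 1.74 CPM, whereas CHRM3 fell by 1.44. The 3 kinase genes STK32A, STK32B and STK32C rose by 0.71, 0.93 and 1.23 (adjusted p = 0.0132, 0.000264 and 0.0117), the call for STK32A being lost without a library of replicate 4 or 5 and that for STK32C without one of replicate 3. NECTIN1 and NECTIN3, cell adhesion genes, rose by 1.44 and 0.44, while NECTIN2 and NECTIN4 did not pass (log2 0.05 and -0.08). Both monoamine oxidase genes rose (MAOA by 0.36, MAOB by 1.01), as did NOS3 and NOS1, nitric oxide synthases, by 1.13 and 0.53. DIO1, a second deiodinase, fell by 0.50 (adjusted p = 0.00298) where DIO2 rose. P2RY14, a receptor for nucleotide sugars, rose by 2.57 ± 0.22 (adjusted p = 2.59e-07), from 0.373 to 0.802 CPM to 1.89 to 4.21 CPM without overlap, against 0.91 in sorted cells. Of the genes named in these 2 paragraphs, FBP1, FBP2, NECTIN1, P2RY14, CRYBB2 and CHRM3 passed without the replicate block.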
